A study of Homo sapiens with 4 samples.

Results

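A group of 1699 nucleosomes of BE(2)C neuroblastoma cells was examined whose read midpoints clustered tightly around 1 place in all 4 maps. They were found by starting from the autosomal nucleosomes of control replicate 1 and asking for a mutually closest dyad within 20 bp in each of the other libraries. The dyad is the centre of the DNA wrapped on a nucleosome. Fuzziness, the SD in bp of the read-pair midpoints around that centre, had to be under 25 bp in all 4 libraries. At least 12 reads were asked for in both replicate 1 libraries and at least 18 in both replicate 2 libraries. Of the 10101549 autosomal nucleosomes of control replicate 1, 1198442 were matched in the other 3 libraries and 666019 of these also had the reads. The sharp nucleosomes were 0.255% of these 666019, and 6844 (1.03%) had a fuzziness above 38 bp in all 4 libraries and served as the fuzzy set.

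Nucleosomes wrap DNA around a core of histones, and micrococcal nuclease (MNase) cuts the linkers between them, so that the protected fragments show where each nucleosome sits. Most nucleosomes take slightly different places from cell to cell. Barriers to which nucleosomes line up, such as a promoter kept open for transcription or a bound CTCF protein, and some DNA sequences hold them more firmly. MYCN is a MYC family transcription factor that binds E-box motifs, and its gene is amplified in many aggressive neuroblastomas.

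The study asked how depletion of MYCN bears on nucleosome positions. BE(2)C is an established human neuroblastoma line in culture with an amplified MYCN gene, labelled wild type, and 1 line was used for all libraries. There were 2 groups, control siRNA (2 libraries) and siRNA against MYCN (2 libraries), both labelled 80 nM, with the crosslinked chromatin digested by MNase. The study's methods state a lower final siRNA concentration than the labels, and which was used could not be settled here. The libraries held 10527010 to 12178724 nucleosomes and 147370973 to 242544884 reads in them. Replicate 2 was deeper than replicate 1 in both groups. Fuzziness differed with replicate number. Under 25 bp were 8.13% and 8.35% of autosomal nucleosomes in the replicate 1 libraries and 3.36% and 3.42% in the replicate 2 libraries. Depth and replicate number cannot be told apart here. The study's methods call the libraries biological replicates, but neither they nor the labels say what was separate between them, and p-values measure the spread between these libraries. These maps hold no transcripts, so the loss of MYCN could not be checked in them.

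Members were chosen by their fuzziness, reads and dyad distance in these same libraries, so these values are a description. The median fuzziness was 19.28 bp in control replicate 1, 21.67 bp in control replicate 2, 19.17 bp in knockdown replicate 1 and 21.47 bp in knockdown replicate 2. Over all matched nucleosomes the medians were 32.84, 34.85, 32.97 and 34.80 bp in the same order. The median sharp nucleosome held 23, 31, 22 and 31 reads, against 19, 30, 19 and 29 reads over all matched ones. Of the 1699, 437 were under 22 bp in all 4 libraries, 167 under 20 bp, 21 under 15 bp and 0 under 10 bp. The 622 members whose highest value lay from 24 to 25 bp had a median mean fuzziness of 21.4 bp, and the 1003 nucleosomes just outside, from 25 to 26 bp, had 22.3 bp.

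Sharpness was then read where it had not been chosen. Nucleosomes under 25 bp in 3 libraries were looked up in the library left out. They were under 25 bp there in 77.5% of 2193 cases for control replicate 1, 41.3% of 4115 for control replicate 2, 75.1% of 2261 for knockdown replicate 1 and 42.3% of 4021 for knockdown replicate 2. Over all matched nucleosomes the shares were 11.5%, 2.69%, 11.2% and 2.86%. The median in the library left out was lower by 10.4 bp ± 2.00 (SD, n = 4 libraries) than that of all matched nucleosomes. It was lower in 4 of 4 libraries (exact permutation test paired by library, two-sided, p = 0.13, the smallest that 4 libraries allow). Sharpness chosen in both control libraries was found in 58.3% and 32.8% of 6899 nucleosomes in knockdown replicates 1 and 2. Sharpness chosen in both knockdown libraries was found in 59.8% and 31.8% of 6886 nucleosomes in control replicates 1 and 2. The carry-over thus differed with replicate number by far more than with its direction between groups.

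Several sequences show what the sharp nucleosomes wrapped. All are the plus strand of GRCh37 (hg19), from 5′ to 3′, and lie outside annotated exons. The nucleosome upstream of FOS (chr14:75745288-75745434) and that upstream of CRY1 (chr12:107487450-107487596, within an intron of the noncoding gene ENSG00000257548) stand for promoters. The sharpest of all members outside bins of high read count lay at chr20:26300836-26300982, in intergenic DNA next to the centromere. The sharpest member inside such bins lay in intergenic DNA at chr2:90376890-90377036. In these 4 the capitals mark 11 bases at the mean dyad of the 4 libraries.
FOS: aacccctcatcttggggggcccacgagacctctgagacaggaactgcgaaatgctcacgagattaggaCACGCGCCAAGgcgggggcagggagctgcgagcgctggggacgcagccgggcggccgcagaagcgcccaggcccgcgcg
CRY1: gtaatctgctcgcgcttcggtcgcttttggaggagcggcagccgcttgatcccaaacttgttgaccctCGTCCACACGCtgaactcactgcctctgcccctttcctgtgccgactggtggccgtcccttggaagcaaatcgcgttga
chr20: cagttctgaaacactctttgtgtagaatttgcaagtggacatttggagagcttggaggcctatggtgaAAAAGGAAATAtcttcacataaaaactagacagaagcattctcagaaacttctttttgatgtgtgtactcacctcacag
chr2: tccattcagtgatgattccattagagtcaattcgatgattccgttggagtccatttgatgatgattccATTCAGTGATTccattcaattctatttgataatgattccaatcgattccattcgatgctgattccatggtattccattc
The next lay beside a CTCF motif in an intron of TRPM3 (chr9:73217555-73217794), chosen after its values were seen as the sharpest of its kind. The capitals mark the motif, with the dyad at base 73217721.
TRPM3: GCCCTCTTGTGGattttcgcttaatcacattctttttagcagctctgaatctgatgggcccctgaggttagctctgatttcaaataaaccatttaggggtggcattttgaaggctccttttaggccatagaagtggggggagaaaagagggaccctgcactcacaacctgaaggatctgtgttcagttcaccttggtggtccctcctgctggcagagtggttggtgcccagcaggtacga
The last run goes from 1 dyad to the next in an array on chromosome 12 (chr12:34514641-34514838), with 11 bases at each dyad in capitals.
chr12: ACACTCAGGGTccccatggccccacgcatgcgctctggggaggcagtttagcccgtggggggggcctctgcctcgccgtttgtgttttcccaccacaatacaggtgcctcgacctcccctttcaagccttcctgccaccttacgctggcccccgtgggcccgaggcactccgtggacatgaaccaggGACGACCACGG

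Sharp nucleosomes were found near promoters more often than the others. Of the 1699, 135 (7.95%, 95% Wilson interval 6.75 to 9.33) had their dyad within 1 kb of the canonical transcription start site (TSS) of a protein-coding gene. The share was 1.10% (0.875 to 1.37) in the fuzzy set and 2.10% (2.07 to 2.14) over all matched nucleosomes. These intervals cover counting error only, and regions of 1 genome are not replicates, so no test was made. The median distance to the nearest TSS was 42780 bp for sharp, 74066 bp for fuzzy and 52352 bp for all matched nucleosomes. Exons held 107 sharp nucleosomes (6.30%), against 5.65% of fuzzy and 5.42% of all matched ones, and these intervals overlapped (5.24 to 7.55 for sharp). Coding sequence held 2.00% of sharp, 2.05% of fuzzy and 2.03% of all matched nucleosomes. Introns held 40.4% of the sharp set, lower than the 52.4% and 52.8% of the other sets, and intergenic DNA held 53.3%, higher than 42.0% and 41.8%. Without bins of high read count intergenic DNA still held 48.9%.

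Within promoters the sharp nucleosomes were most frequent just downstream and just upstream of the TSS, and 49 of the 135 lay elsewhere within 1 kb. The first nucleosome downstream of a TSS, with its dyad from 75 to 174 bp, held 55 of the 135, at a median of 128 bp. That was 3.24% of sharp (2.50 to 4.19), 0.0292% of fuzzy (2 nucleosomes) and 0.339% of all matched nucleosomes. The place just upstream, 250 to 101 bp before the TSS, held 31 at a median of 163 bp before it, which was 1.82% of sharp, 0.0438% of fuzzy and 0.166% of all matched nucleosomes. The second place downstream, 250 to 349 bp, held 7 (0.412%, against 0.132% of all matched). From 100 bp before the TSS to 74 bp after it, where promoters are often free of nucleosomes, there were 4. That was 0.235% of sharp (0.0916 to 0.604), 0.102% of fuzzy and 0.0979% of all matched nucleosomes. These windows were set after the profile had been seen. Read the other way, 2.44% of the 2251 matched nucleosomes in the first downstream place were sharp (1.88 to 3.17) and 2.82% of the 1099 upstream ones were (1.99 to 3.98), while 0.465% of the other 10546 within 1 kb were and 0.231% of all matched ones, outside bins of high read count.

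**Figure D1:**
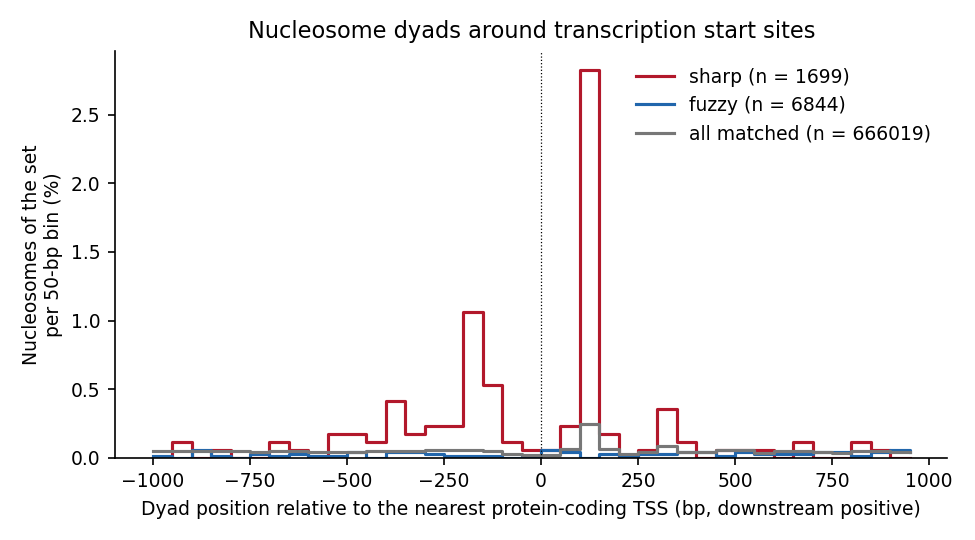
Share of each set of nucleosomes (vertical axis, % per 50-bp bin) by the distance of the dyad from the nearest protein-coding TSS (horizontal axis, bp, downstream positive), for sharp, fuzzy and all matched nucleosomes. The sharp set has 48 members (2.83%) from 100 to 150 bp downstream and 18 (1.06%) from 200 to 150 bp upstream, and the other sets stay near the axis.

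The sharpest of the 55 first downstream nucleosomes, by the mean over libraries, belonged to HELZ, an RNA helicase (dyad at 145 bp), and the next to CSNK1D, a casein kinase 1 of the circadian clock (128 bp). CSNK1D, with its dyad at chr17:80231448 in the untranslated part of an exon, had a fuzziness of 19.41 and 13.50 bp in the controls and 18.09 and 16.97 bp in the knockdown. Its reads were 32 and 62 in the controls and 46 and 54 in the knockdown, so the groups overlapped in both. HELZ, with its dyad at chr17:65241167 in an exon of another annotated gene that overlaps it, had 17.11 and 17.29 bp in the controls and 16.82 and 16.29 bp in the knockdown. The knockdown values of HELZ were thus the lower ones, and its adjusted p in limma's test over all matched nucleosomes was 0.9998. Fuzziness had chosen this member, so the order of its groups is no result about it.

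Upstream of the TSS the sharpest member belonged to NELFA, a subunit of the complex that holds RNA polymerase II in pause, with its dyad 153 bp before the TSS at chr4:2010854. Its dyads were at 2010853 and 2010852 in the controls and 2010856 and 2010854 in the knockdown. Its fuzziness was 15.05 and 18.62 bp in the controls and 10.43 and 13.68 bp in the knockdown, and its reads were 31 and 31 against 30 and 35. The dyads of the groups did not overlap, as for 29.9% of all matched nucleosomes, and the shift was 2.50 bp ± 6.29 (SE of the fit). ARID3A, a DNA-binding regulator of lymphoid and early embryonic genes, had its dyad 184 bp before the TSS and a fuzziness from 15.03 to 17.08 bp. FOS, an immediate early transcription factor of the AP-1 complex, had 45 and 46 reads in the controls and 32 and 49 in the knockdown with the dyad 170 bp before the TSS. CRY1, a repressor of the circadian clock, had 24 and 19 reads against 12 and 20 with the dyad 196 bp before the TSS. The reads of the groups overlapped for both. FRAT1, ZNF586 and EPHB1 followed, at 141, 254 and 352 bp before the TSS with a mean fuzziness of 16.97, 16.86 and 16.92 bp. Inside genes, TOP1, the DNA topoisomerase that relaxes supercoils ahead of polymerases, and NUPR2 had sharp nucleosomes in their introns 846 and 875 bp downstream with 15.29 and 14.60 bp.

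Some genes had more than 1 sharp nucleosome near the TSS. EPHB1, an ephrin receptor, had 2 at 352 and 41 bp before the TSS, and KNSTRN, a spindle protein, had 2 at 358 bp before and 10 bp after it.

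Gene lists were then compared with the 8422 protein-coding genes that had any matched nucleosome within 1 kb of the TSS, of which 131 (1.56%) had a sharp one. Cytosolic ribosomal protein genes, which are transcribed in every growing cell, had one in 6 of 46 genes (13.0%). At the first downstream place they had one in 5 of 39 genes (12.8%), against 55 of 2251 genes (2.44%) in all. Among them were RPL37 at 135 bp, RPS15 at 136 bp and RPL18 at 129 bp, all in introns. RPS15 had 17.23 and 18.44 bp in the controls and 21.63 and 20.29 bp in the knockdown, and RPL37 had 21.29 and 21.41 bp against 11.76 and 21.08 bp. The groups of RPS15 thus did not overlap in fuzziness, and its adjusted p in limma's test over all matched nucleosomes was 0.9998. Fuzziness had chosen this member, and the share of all matched nucleosomes without overlap in fuzziness is not given here. The order of the groups is thus no result about RPS15. Histone chaperone genes, which hand histones to DNA, had one in 1 of 10 genes, NPM1 (471 bp before the TSS). DNA repair genes had one in 0 of 34, ATP-dependent chromatin remodeler genes in 0 of 20 and adrenergic neuroblastoma transcription factor genes in 0 of 6. At the overall share of 1.56%, lists of this size could hold none.

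The neighbours of a sharp promoter nucleosome were uneven at the first downstream place. From the first downstream place the nearest dyad on the TSS side was at a median of 346.0 bp ± 24.7 (SD, n = 4 libraries), and the nearest on the gene side at 202.0 bp ± 2.45. Over the 2251 matched nucleosomes of this place the medians were 327.8 bp ± 14.7 and 200.5 bp ± 2.08, so a wide gap on the TSS side was also found over all of them. At the upstream place the sharp nucleosomes had distant neighbours on both sides, at medians of 282.8 bp ± 7.14 towards the TSS and 278.0 bp ± 6.16 away from it. The 1099 matched nucleosomes of this place had their away-side neighbour at 206.8 bp ± 0.957, lower than the sharp ones in all 4 libraries.

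CTCF, the zinc finger protein that bounds chromatin loops, is known for arrays of nucleosomes on each side of its sites. Its motif was searched on both strands in 2 exact forms, which had only 255 and 253 sites on the autosomes. A looser form, with 3 of its 12 letters free, had 18064 sites and was added after the data had been seen, and a site of an exact form can hold it. This looser motif lay 74 to 200 bp from the dyad, outside the wrapped DNA, in 91 sharp nucleosomes (5.36%, 4.38 to 6.53). The shares were 0.205% of the fuzzy set and 0.423% of all matched nucleosomes. A further 37 sharp nucleosomes (2.18%) had it 201 to 400 bp away, against 0.248% of fuzzy and 0.499% of all matched ones. Within 73 bp of the dyad, where the motif would be wrapped, it was found in 0 of 1699 sharp nucleosomes, which allows a share of up to 0.177% (3 counts), and in 0.161% of all matched ones.

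The distances were tight. The 91 had a median of 146.0 bp between dyad and motif, with the middle 50% from 138.0 to 151.0 bp, and the 37 had 327.0 bp with 320.0 to 332.0 bp. The neighbour across the motif was at a median of 292.5 bp ± 4.12 (SD, n = 4 libraries) and the neighbour away from it at 187.8 bp ± 0.957. The 2801 matched nucleosomes beside this motif had 269.5 bp ± 1.0 and 190.3 bp ± 0.957. Of these 2801, 3.25% were sharp (2.65 to 3.97), against 0.231% of all matched nucleosomes outside bins of high read count. The sharpest was that in TRPM3 printed above, with 11.66 and 17.60 bp in the controls and 13.85 and 13.86 bp in the knockdown. Its dyads were at 73217720 and 73217721 in the controls and 73217722 and 73217721 in the knockdown. The 4 libraries placed it within 2 bp of each other. NELFA also had the looser motif, 120 bp from its dyad.

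**Figure D2:**
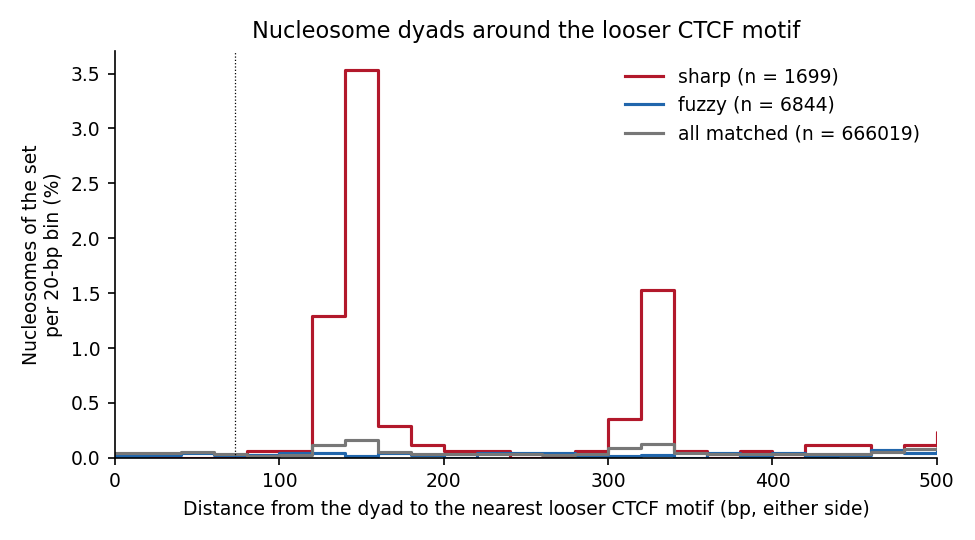
Share of each set of nucleosomes (vertical axis, % per 20-bp bin) by the distance from the dyad to the nearest looser CTCF motif on either side (horizontal axis, bp), with the edge of the wrapped DNA dotted at 73 bp. The sharp set rises to 3.53% from 140 to 160 bp and to 1.53% from 320 to 340 bp.

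Other motifs were rarer or alike between sets. The E-box CACGTG, the site that MYC family proteins bind, lay within 73 bp of 2.18% of sharp dyads (1.58 to 2.99), 2.57% of fuzzy ones and 2.60% of all matched ones. From 74 to 200 bp it was found beside 2.35%, 2.66% and 2.64%. The palindromic NRF1 motif lay 74 to 200 bp from 5 sharp dyads (0.294%, against 0.0237% of all matched), and the REST motif from 0. Of the matched nucleosomes 74 to 200 bp from the NRF1 motif, 3.52% were sharp outside bins of high read count (5 of 142, interval 1.51 to 7.98). A match is a description of letters and not of a bound factor.

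Repeated DNA gave a further group. The median of the counts of its 24-base words on the autosomes was 10 or more for 33.6% of sharp nucleosomes, 14.6% of fuzzy ones and 24.1% of every 50th matched one. It was 1000 or more for 11.8%, 2.63% and 6.94%. Only read pairs above a mapping quality limit had been kept, which bears on all repeats, and its part in these shares was not tested.

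A small number of 10-kb bins, those above 3 times the median read count, held 181 sharp nucleosomes (10.7%), 1381 fuzzy ones (20.2%) and 1.43% of all matched ones. The largest groups of sharp members in these bins lay next to centromeres, with 24 near 49 Mb of chromosome 4, 19 near 43 Mb of chromosome 8, 15 near 42 Mb of chromosome 10 and 14 near 121 Mb of chromosome 1. A further 12 lay near 86 Mb of chromosome 8, away from its centromere. Over all 181 members the median reads were 166 and 223 in the controls and 163 and 205 in the knockdown, and their median GC was 40.1%. The 3 sharpest were at chr2:90376963 with a mean fuzziness of 9.78 bp, chr8:46843408 with 10.5 bp and chr8:43827489 with 10.8 bp. In contrast, the bins within 1 Mb of MYCN, which the amplification raises, held 1248 matched nucleosomes, of which 1013 were fuzzy and 0 sharp. The copies of an amplified or repeated region cannot be told apart in these maps.

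The sharpest members outside these bins were also in repeated or pericentromeric DNA. The first, on chromosome 20 and printed above, had a fuzziness of 4.73 and 8.16 bp in the controls and 12.49 and 7.37 bp in the knockdown, with 22, 42, 32 and 43 reads. The next, at chr6:58780091, had 10.14 and 10.34 bp in the controls and 8.83 and 9.73 bp in the knockdown, with 82 and 250 reads against 109 and 226. Its dyads were within 2 bp of each other in the 4 libraries. Its 10-kb bin held 0.247 times the median bin's reads, so high counts at single nucleosomes can lie outside the marked bins. Members in introns of ZBTB20, a zinc finger repressor (chr3:114563295), LRRIQ4 (chr3:169549159) and PTPRS, a receptor tyrosine phosphatase (chr19:5305870), were also among the 6 sharpest, with means of 10.90, 11.20 and 11.28 bp. Their 24-base words had medians of 196, 416 and 1020 copies. In those introns the control replicate 1 value was 2.11, 6.22 and 6.37 bp and the control replicate 2 value 15.60, 14.63 and 21.63 bp, on 12 to 14 and 25 to 30 reads. In the knockdown replicate 1 had 17.25, 3.26 and 6.15 bp and replicate 2 had 8.62, 20.68 and 10.99 bp. Replicate 1 was thus the lower in both groups for LRRIQ4 and PTPRS, and in the controls but not in the knockdown for ZBTB20.

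Members seldom lay next to each other. Adjacent sharp nucleosomes, with dyads from 1 nucleosome length to 220 bp apart, formed 38 runs of 83 members, and 3 runs had over 2. Their spacing had a median of 189.0 bp over 45 distances, and 39 of the 45 were from 170 to 200 bp. Of the 38 runs 8 lay in bins of high read count. Several runs of 2 lay in or near the chromosome 12 stretch described next, so that stretch weighs on this spacing. The 3 longest runs, of 6, 4 and 3, all lay in a stretch of 32770 bp on chromosome 12 (chr12:34514646-34547415), which holds no gene and whose nearest TSS is that of ALG10, 339215 bp away. The sharpest pair outside bins of high read count was next, on chromosome 2 (chr2:10253415 and chr2:10253630), 9451 bp before the TSS of RRM2, which makes deoxynucleotides for DNA synthesis.

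The chromosome 12 stretch was a single regular array. Of its 151 matched nucleosomes 30 were sharp (19.9%) and 0 were fuzzy. The libraries called 175, 175, 174 and 175 nucleosomes in the stretch, in the order control replicates 1 and 2 and knockdown replicates 1 and 2. The median spacing was 187.0 bp in each, and 89.7%, 95.4%, 91.9% and 93.1% of the spacings were from 170 to 200 bp, against 23.8%, 26%, 23.7% and 26.1% on all autosomes. Each library had 2 spacings over 300 bp. Its median fuzziness was 23.2, 24.6, 22.8 and 25.2 bp, against 35.2, 36.5, 35.2 and 36.5 bp on all autosomes. The stretch was chosen for its runs, so these are descriptions with no test.

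Its DNA repeats at nearly the same distance. Of its bases 42.7% equalled the base 188 bp further on, the highest of all distances from 20 to 1000 bp, where the median was 26.5%. Its GC was 61.1%, yet the median count of the 24-base words of its sharp members was 1, so the units differ enough to be told apart. Its bins held 1.89 to 2.03 times the median reads, under the limit for high bins. The first 3 dyads of its run of 4 were at 34514646, 34514832 and 34515019 in control replicate 1 and at 34514647, 34514833 and 34515024 in control replicate 2. In knockdown replicate 1 they were at 34514644, 34514834 and 34515021, and in knockdown replicate 2 at 34514646, 34514832 and 34515023. The groups overlapped at each of these.

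**Figure D3:**
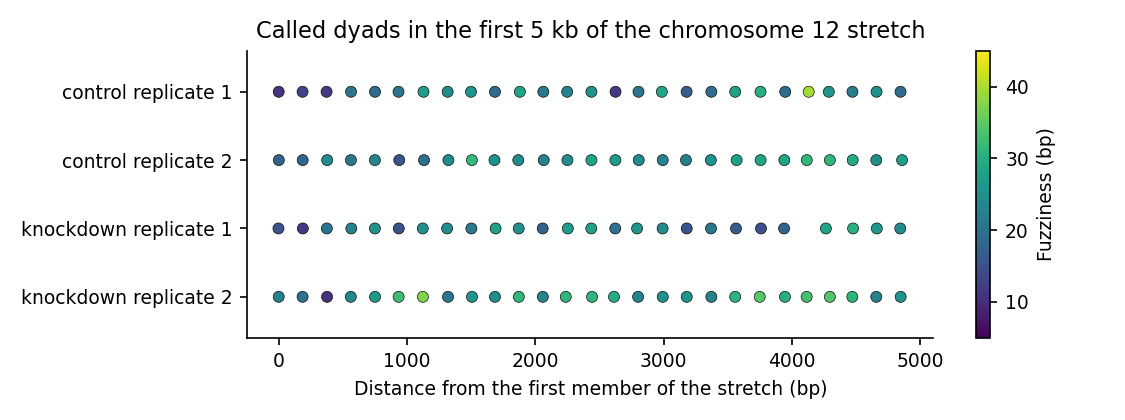
Called dyads in the first 5 kb of the chromosome 12 stretch in the 4 libraries (rows), by distance from its first sharp member (horizontal axis, bp) and coloured by fuzziness (bp). The dyads of the 4 libraries stand in the same columns, about 187 bp apart.

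Around all members, the mean spacing was wider and its spread larger than around fuzzy nucleosomes. The mean distance to neighbours from 100 to 300 bp away was 210.9 bp ± 0.710 (SD, n = 4 libraries) for sharp and 205.2 bp ± 0.154 for fuzzy nucleosomes. The difference was 5.74 bp ± 0.686, higher in 4 of 4 libraries (exact permutation test paired by library, two-sided, p = 0.13, the smallest possible). Against all matched nucleosomes it was 5.32 bp ± 0.420. The median distances were closer, at 197 to 199 bp for sharp, 195 to 196 bp for fuzzy and 198 bp for all matched nucleosomes. The SD of the distances was 39.3 bp for sharp and 37.7 bp for fuzzy nucleosomes, as the mean of the 4 libraries. A gap of over 300 bp on at least 1 side was found for 43.3% ± 5.80 of sharp, 24.4% ± 2.36 of fuzzy and 29.2% ± 5.32 of all matched nucleosomes. Neighbours within 220 bp on both sides were found for 24.4% ± 3.11 of sharp and 38.2% ± 0.865 of fuzzy ones. The neighbours were themselves sharper, with a median fuzziness of 30.0 bp ± 1.80 around sharp and 37.6 bp ± 0.630 around fuzzy nucleosomes, lower in 4 of 4 libraries (exact permutation test, p = 0.13). Around all matched nucleosomes it was 35.7 bp ± 0.806. The median reads of the neighbours were 16, 25, 16 and 23 around sharp and 19, 29, 19 and 28 around fuzzy nucleosomes. Around all matched ones they were 16, 24, 15 and 23, in the order control replicates 1 and 2 and knockdown replicates 1 and 2. The part of reads in these values was not tested. Under 25 bp were 27% ± 8.79 of the neighbours of sharp and 2.52% ± 1.79 of those of fuzzy nucleosomes. Gaps around sharp nucleosomes also differed with replicate number. They stood at 48.0% and 48.6% in the replicate 1 libraries of control and knockdown and 39.1% and 37.6% in the replicate 2 libraries. With neighbours up to 400 bp away the difference in spacing was 15.5 bp.

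**Figure D4:**
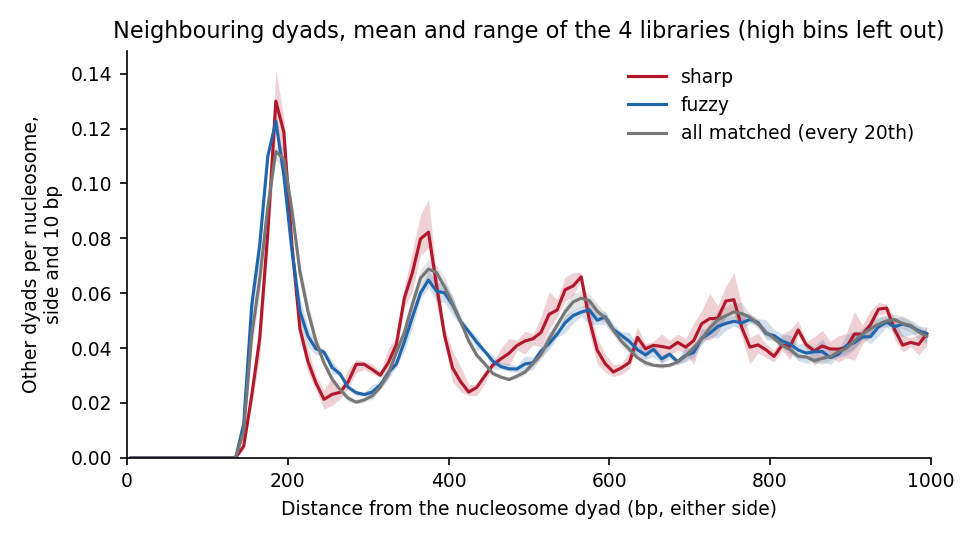
Other dyads per nucleosome, side and 10 bp (vertical axis) by distance from a sharp, fuzzy or matched dyad (horizontal axis, bp), with lines for the mean and bands for the range of the 4 libraries and bins of high read count left out. The second peak stood at 1.82 to 2.00 times the mean density around sharp, 1.32 to 1.47 times around fuzzy and 1.51 to 1.53 times around matched nucleosomes.

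The DNA of sharp nucleosomes was richer in G and C. The median GC of the wrapped DNA was 54.4% for sharp, 50.3% for fuzzy and 53.1% for all matched nucleosomes. The spread was wider as well, from 36.7% to 69.4% between the 5th and 95th percentiles against 39.5% to 65.3% over all matched. At least 10 CpG dinucleotides were found in 11.3% of sharp, 1.21% of fuzzy and 2.86% of all matched nucleosomes. By place the median was 66.7% within 1 kb of a TSS, 55.1% beside the looser CTCF motif and 40.1% in bins of high read count. Dinucleotides that recur about every 10 bp along wrapped DNA had a small amplitude. For GG, CC, GC and CG it was 0.286 percentage points in sharp, 0.112 in fuzzy and 0.0708 in every 50th matched nucleosome. For AA, TT and TA the order differed, with 0.0723 in sharp, 0.0838 in fuzzy and 0.0592 in every 50th matched one. In both groups of dinucleotides the matched ones had the opposite sign to the other sets. Over all periods the largest amplitude in sharp ones was 0.355 at 10.5 bp for the first group and 0.277 at 6.7 bp for the second. The sets held 1699, 6844 and 13321 nucleosomes, and the part of set size in these amplitudes was not tested. MNase digestion and amplification depend on base composition, and their part in these values was not tested. The 801 members (47.1%) that were in no bin of high read count, not within 1 kb of a TSS, not within 400 bp of the looser CTCF motif and not in DNA of 10 or more copies had a median GC of 53.7%, close to that of all matched nucleosomes.

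Chromosomes other than 18 held 1.80 to 4.49 sharp nucleosomes per 1000 matched ones, with 2.55 over all. Only 891 matched nucleosomes of chromosome 18 were analysed here, far fewer than of any other chromosome, so its share was not compared. Chromosomes 8, 4 and 19 had the highest values, with 4.49, 3.92 and 3.48. Without bins of high read count chromosome 8 had 2.67, chromosome 4 had 2.91 and chromosome 19 had 3.31.

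The dyads of sharp nucleosomes were then compared between the groups. The limit on the distance was part of the rule and caps each distance from control replicate 1 at 20 bp. The limit on fuzziness, the SD of midpoints around the dyad, also bears on how closely a dyad is placed. Smaller distances and shifts than in the other sets are thus a description. Between the controls the mean distance of the 1699 dyads was 4.69 bp, and between the knockdown libraries it was 4.80 bp. Between groups it was 4.07 bp for both replicate 1 libraries, 4.14 bp for both replicate 2 libraries, 4.54 bp for control replicate 1 with knockdown replicate 2 and 4.67 bp for control replicate 2 with knockdown replicate 1. All 4 distances between groups were below both distances within a group. Without bins of high read count this did not hold, since control replicate 2 with knockdown replicate 1 had 4.86 bp and the controls 4.81 bp. Over all matched nucleosomes the 6 means were 7.57 to 9.35 bp and over the fuzzy set 7.29 to 9.31 bp.

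The mean shift of the sharp dyads, knockdown minus control, was -0.041 bp with an SD of 3.93 bp over the 1699. The median size of the shift was 2.00 bp, against 4.50 bp for fuzzy and 5.00 bp for all matched nucleosomes. A shift of over 10 bp was found for 31 sharp nucleosomes (1.82%), 16.9% of fuzzy and 17.4% of all matched ones. In limma's moderated test of dyad position with Benjamini-Hochberg adjustment, fitted over the 666019 matched nucleosomes, 0 were called at an adjusted p under 0.05 (0% of all tested), and 0 of the sharp ones were. At an unadjusted p under 0.05 there were 8 sharp nucleosomes (0.471%) and 4.47% of all matched ones. The dyads of the groups did not overlap for 367 sharp nucleosomes (21.6%), against 29.9% of all matched ones. The limit on fuzziness chose the members and bears on their dyads, so these lower shares are no result about them. By kind, the median size of the shift was 1.0 bp in bins of high read count, 2.0 bp at the first downstream place, 3.0 bp at the upstream place and 2.0 bp beside the looser CTCF motif. The mean shifts of these kinds were between -0.102 and 0.203 bp.

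**Figure D5:**
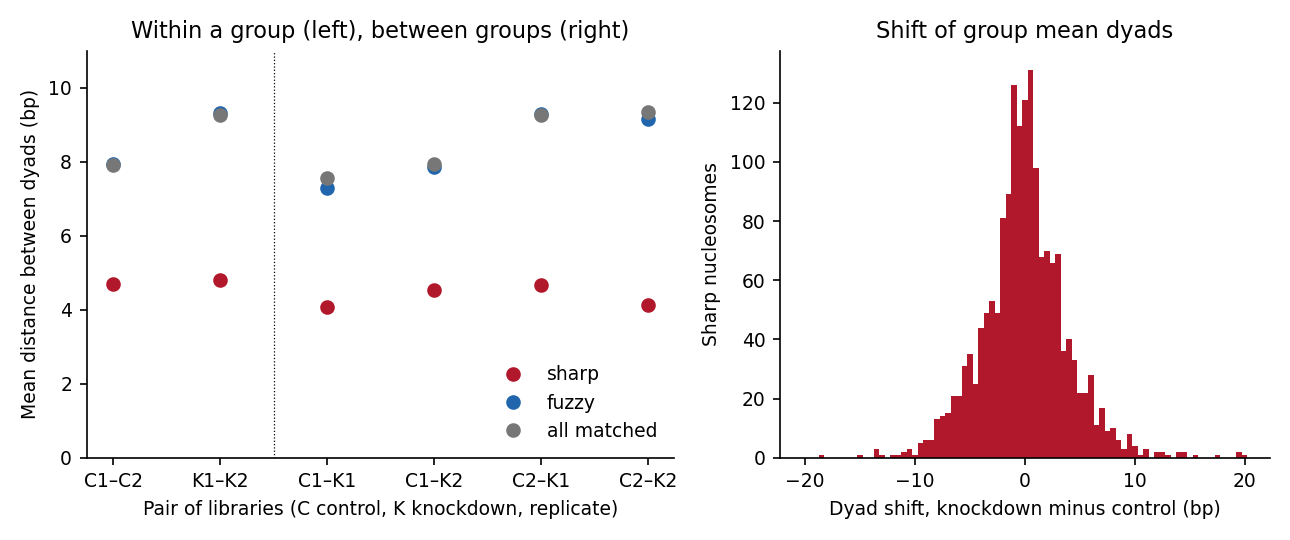
Left, mean distance between dyads (bp) of the same nucleosomes in the 6 pairs of libraries, for sharp, fuzzy and all matched nucleosomes, with the pairs within a group left of the dotted line. Right, number of sharp nucleosomes by the shift of the mean dyad, knockdown minus control (bp). The sharp set has 4.07 to 4.80 bp in all pairs, and its shifts centre near 0.

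Occupancy, the number of reads per nucleosome, was compared in the same way. In edgeR's quasi-likelihood test with TMM scaling and Benjamini-Hochberg adjustment, 0 of the 666019 matched and 0 of the 1699 sharp nucleosomes were called (0%). At an unadjusted p under 0.05 there were 43 sharp ones (2.53%), against 3.06% of all, and DESeq2 had 0 sharp ones against 0.0476% of all. On leaving out each library in turn 1 sharp nucleosome was called, at chr20:26264776 (nearest TSS that of ZNF337). Its reads were 294 and 287 in the replicate 1 libraries of control and knockdown but 61 and 72 in the replicate 2 libraries, so it differed with replicate number. Its log2 change was 2.06 (adjusted p = 2.9e-05, edgeR) without control replicate 1 and -1.73 (adjusted p = 0.0148, edgeR) without knockdown replicate 1. With the replicate number as a block 0 sharp nucleosomes were called in any of the 3 fits, and 0.0003% of all were for occupancy, 0% for dyad shift and 0.00045% for fuzziness. At an unadjusted p under 0.05 the block gave 3.71% of sharp against 3.89% of all for occupancy, 0.471% against 3.28% for dyad shift and 0.824% against 5.17% for fuzziness. A p that misses the threshold does not show that the groups were alike. The median log2 change of the sharp ones was 0.02, with a median size of 0.16. The sign of that median rested on single libraries, since it was 0.08 without control replicate 1, -0.04 without control replicate 2, -0.05 without knockdown replicate 1 and 0.05 without knockdown replicate 2. Fuzziness gave 0 calls in limma's test, with 4 sharp nucleosomes (0.235%) and 3.12% of all at an unadjusted p under 0.05. The limits that chose the members narrow the range that their fuzziness can take and bear on their dyads. Their shares and their 0 calls for fuzziness and dyad shift are thus no result about them, with or without the block.

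Each library gave 1 value of the sharp set as a whole. The median fuzziness was 20.5 bp ± 1.69 in the controls and 20.3 bp ± 1.63 in the knockdown (SD, n = 2 libraries each). The neighbour spacing was 211.1 bp ± 1.09 in the controls and 210.8 bp ± 0.525 in the knockdown (exact permutation test, two-sided, p = 1.0). The sharp set held 0.515% ± 0.0395 of the reads in matched nucleosomes in the controls and 0.524% ± 0.0498 in the knockdown. The limits on fuzziness and reads chose the members, so these values of fuzziness and of reads are given with no test. With 2 libraries against 2 no p can be below 0.33, so the test of spacing could not pass 0.05. In each measure the replicates of a group differed by more than the groups did.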

How the data were processed

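Nucleosome maps of 4 MNase-seq libraries of BE(2)C cells were analysed. Per the submitters' processing notes and the study's methods, reads were handled with CASAVA 1.9, trimmed with Trim Galore 0.4.4 and mapped to hg19 with Bowtie2 2.2.4. Proper pairs above a mapping quality limit were kept and duplicates removed. Genetrack then called nucleosomes of fixed length from pair midpoints. The deposited lists of the authors give for each nucleosome its read count and its fuzziness, a score that is the SD of midpoints in bp. No nucleosome under 6 reads was listed. The methods call occupancy a normalized read count, but the deposited read counts were whole numbers whose sums differed between libraries, and they were used as counts.

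The members and lists were chosen with earlier results of these data known. Dyads were paired, the mean of the 4 dyads was placed on GENCODE 44 (GRCh37), and 10-kb bins above 3 times the median read count were marked. Reads were compared with edgeR 4.0.16 (quasi-likelihood, TMM) and DESeq2 1.42.0, dyad position and fuzziness with limma 3.58.1, in R 4.3.3, over all 666019 matched nucleosomes with Benjamini-Hochberg adjustment. The steps were tested on simulated data. Wilson 95% intervals cover counting error only. Named nucleosomes were the 6 of lowest mean fuzziness, the 12 lowest within 1 kb of a TSS, the 6 genes with the most members, the 4 longest runs, up to 4 genes of each list, any that was called and the 3 sharpest in high bins. The looser CTCF motif, the TSS windows, the chromosome 12 stretch and the members named beside motifs were chosen after seeing the data. Some members that these choices name are not reported here.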

Additional observations from a re-analysis of the deposited data

How the results depend on the processing

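Of 52 recomputed values 41 were counted as kept and 0 reversed, the median log2 change in occupancy given above not being among them. For neighbour spacing and held-out fuzziness only the direction had to be kept. The spacing difference of 15.5 bp with neighbours up to 400 bp, against 5.74 bp, thus counts as kept. The number of sharp nucleosomes was 437 with a limit of 22 bp, 789 with at least 18 and 27 reads, and 3541 with no read minimum beyond that of the lists. Asking for 3 libraries only gave 2467 to 4562, which rests on fewer limits. The share in exons was 10.24% with the exons of all transcripts, and the share within 1 kb of a TSS 17.0% with all annotated TSSs, where all matched nucleosomes had 7.76% and 10.4%. The difference in median GC, sharp minus fuzzy, was 4.08 percentage points over the whole nucleosome and 4.11 over its central 73 bp. Leaving out 1 library gave 0 to 1 sharp nucleosomes called for occupancy, the 1 being that on chromosome 20 described above, where the lone library of a group is assumed to vary like the others.

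Both groups carry replicate numbers 1 and 2. With the replicate number as a block, 0 sharp nucleosomes were called for occupancy, 0 for dyad shift and 0 for fuzziness, while 2, 0 and 3 of all matched ones were. The limits that chose the members bear on the 0 for dyad shift and the 0 for fuzziness. Deviations of same-numbered libraries correlated at 0.113 for log2 reads, 0.0163 for dyad position and 0.0761 for fuzziness over all matched nucleosomes, and at 0.325, 0.170 and 0.156 over the sharp ones. Neither the labels nor the study's methods say what a number shares, and with 2 pairs it was not settled whether the numbers pair the libraries. Depth limits single nucleosomes, since the median sharp one held 22 to 31 reads and the SD of so few midpoints is itself uncertain.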
